A study of Mus musculus with 18 samples.

Results

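Chimeric reads at the muscleblind-like genes Mbnl1, Mbnl2 and Mbnl3 were analysed in mouse thymocytes. The members are the 3 genes of the family, each taken as its gene span in RefSeq assembly GRCm38.p6 on its own strand, out of 17560 genes with at least 1 read. They were chosen by their number of chimeric reads in these libraries, a measure that is given as a description, with no test. They held 1092 of the 462562 sites of the series (sites are groups of reads on 1 strand in which neighbouring positions lie at most 20 nt apart).

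The assay, miR-eCLIP, crosslinks RNA to Argonaute 2 (Ago2) with UV light of 254 nm, immunoprecipitates Ago2 (Ago2 IP) and ligates the bound miRNA to the RNA fragment beside it, so that a chimeric read names a miRNA and places its target. Thymocytes came from C57BL/6 mice (wild type) and from B6.Mirc14tm1.1Ankr mice (knockout), which lack Mir181a-1 and Mir181b-1, all 6 weeks old and kept free of specified pathogens. Both genotypes had 3 libraries of the Ago2 IP itself and 3 libraries in which the IP was enriched further for miR-181, making 4 groups of 3. A further 6 input samples were not analysed here. The knockout is of the whole animal, and the genes Mir181a-2, Mir181b-2, Mir181c and Mir181d are not part of the deletion. No label says that the 3 libraries of a group came from separate animals, so p-values measure the spread between these libraries, which may be technical.

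Muscleblind-like proteins are zinc-finger RNA-binding proteins that regulate alternative splicing and also affect the localisation and stability of mRNAs. Mbnl1 is the member best known from blood cells and muscle, Mbnl2 is prominent in brain, and Mbnl3 is best known from placenta and muscle precursors. A miRNA bound to Ago2 pairs with a target mainly through its seed, bases 2 to 8 from its 5′ end, and lowers the stability or translation of that RNA. miR-181a is abundant in immature thymocytes and is known for tuning T cell receptor signalling.

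The mature sequences that account for most reads on the Mbnl genes are shown because they separate the family under study from the miRNAs that shared these transcripts. The seed is in capitals, and the sequences are from RefSeq (GRCm38.p6).
miR-181a-5p: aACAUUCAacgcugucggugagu
miR-181b-5p: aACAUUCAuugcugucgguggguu
miR-181c-5p: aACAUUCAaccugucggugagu
miR-181d-5p: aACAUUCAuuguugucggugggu
miR-142a-3p: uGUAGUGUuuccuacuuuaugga
let-7i-5p: uGAGGUAGuaguuugugcuguu
miR-16-5p: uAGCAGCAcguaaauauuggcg
miR-20a-5p: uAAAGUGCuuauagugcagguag

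The 4 miR-181-5p members share 1 seed. Counting from 1 at the 5′ end, the first 10 bases of miR-181c-5p are those of miR-181a-5p, whereas miR-181b-5p and miR-181d-5p both differ from miR-181a-5p by A9U and C10U. Mir181a-1 (chr1:137966455-137966541) and Mir181b-1 (chr1:137966639-137966718) encode miR-181a-5p and miR-181b-5p. Both miRNAs are also encoded on chromosome 2, by Mir181a-2 and Mir181b-2. Of the 74 miRNA names found on Mbnl1, 59 matched a RefSeq sequence, and these held 99.2% of its reads. The corresponding numbers were 40 of 51 names for Mbnl2 and 25 of 26 for Mbnl3.

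The deleted genes had no reads in any of the 6 knockout libraries. In wild type, Mir181a-1 had 363 to 545 reads per library in the Ago2 IP and 18798 to 30836 after enrichment, and Mir181b-1 had 136 to 237 and 4915 to 8995. Chimeric reads per library numbered 43983 to 117849 in the wild-type Ago2 IP, 52100 to 67639 in the knockout Ago2 IP, 194628 to 293149 in the wild-type enriched group and 6832 to 19264 in the knockout enriched group. Reads were therefore expressed per 1000000 chimeric reads of the library (rpm). Identical reads (same position, strand and miRNA) made up 3.24% to 7.91% of a library in the other 3 groups and 27.9% to 34.1% in the wild-type enriched group. Whether identical reads are copies of 1 molecule or separate molecules is unknown here, so values with such reads counted once may also leave out separate molecules. All 8 thymocyte markers examined had reads in both wild-type groups and 7 of 8 in both knockout groups, where Ptcra was at 0. Summed thymocyte markers were at 6457 to 7630 rpm in the wild-type Ago2 IP and 4761 to 5165 rpm in the knockout Ago2 IP, and the part of this difference in the results below was not tested. The 4 markers of thymic epithelium were at 0 in all Ago2 IP libraries. B cell and myeloid markers stayed at or below 38.4 rpm there, and erythroid markers at or below 101 rpm. Of the stromal and endothelial markers Pecam1 alone had reads in the Ago2 IP, with 246 to 305 rpm in wild type and 378 to 458 rpm in the knockout, the opposite order to the thymocyte markers, and its part in the results was not tested either. In these bulk samples, fewer cells of a type and less RNA per cell cannot be told apart.

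Knockout enriched libraries 2 and 3 were the only pair of 1 group that a chi-square test of counts did not tell apart (p = 0.198 over 151 genes, highest p of other pairs 0.0324). This pair had the fewest genes to test. Its chi-square per degree of freedom, 1.096, was no lower than that of wild-type Ago2 IP libraries 1 and 2 (1.092 over 3042 genes). The test therefore does not show that these libraries are more alike than others. Of the 6433 distinct reads of library 3, 4.93% were also in library 2 and 3.995% in library 1, which held 17740 and 11320 distinct reads. The labels give libraries 2 and 3 as separate samples. They were kept as such, and values that rest on them are also given with both taken as 1 sample.

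The 3 genes differed widely in how many reads they held. Mbnl1 (gene ID 56758, chr3:60472559-60629750, plus strand) had 4503 reads over the 12 libraries, ranking 7th among all genes, with 3 reads on the opposite strand. Mbnl2 (gene ID 105559, chr14:120275652-120431698, plus strand) had 489 reads and ranked 335th. Mbnl3 (gene ID 171170, chrX:51113494-51205990, minus strand) had 177 reads and ranked 1381st. The Mbnl1 and Mbnl2 spans are of nearly the same length (157 and 156 kb) and that of Mbnl3 is 92.5 kb, so the order of the genes is not one of span length. Identical reads made up 39.6% of Mbnl1 reads, 1.23% of Mbnl2 reads and 5.08% of Mbnl3 reads. The Mbnl2 span overlaps the lncRNA genes Gm52122 and Gm26679, which lie on the opposite strand, and LOC115486414, whose strand was not given and whose span holds 15 of the Mbnl2 reads. Exon and intron positions were not used here.

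Mbnl1 was the leading member in every library. Its level in the wild-type Ago2 IP libraries was 2529, 3243 and 2706 rpm (298, 224 and 119 reads). In the knockout Ago2 IP it was 2040, 1996 and 2457 rpm (124, 135 and 128 reads). The lowest wild-type library lay above the highest knockout library, and the groups were likewise without overlap in 25.9% of the 1615 genes tested in this comparison. The group means were 2826 ± 372 and 2164 ± 254 rpm (SD, n = 3 each). In the wild-type enriched group Mbnl1 was at 4182, 4690 and 4676 rpm and in the knockout enriched group at 4513, 3270 and 4684 rpm, and these groups overlapped. Their means were 4516 ± 289 and 4156 ± 772 rpm (SD, n = 3 each), the latter 4245 ± 379 rpm (SD, n = 2) when knockout libraries 2 and 3 are summed. The knockout enriched values rest on 55, 63 and 32 reads.

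Mbnl2 was several times lower and did not follow the same order of groups. It had 552, 521 and 705 rpm in the wild-type Ago2 IP and 296, 680 and 633 rpm in the knockout Ago2 IP, which overlapped. In the wild-type enriched group it had 307, 343 and 319 rpm, each below every wild-type Ago2 IP library (groups of 53.4% of the 3144 genes tested did not overlap here). The knockout enriched libraries had 903, 415 and 293 rpm from 11, 8 and 2 reads, a spread that covers nearly all values of the other groups. Their mean of 537 ± 323 rpm (SD, n = 3) became 628 ± 388 rpm (SD, n = 2) with libraries 2 and 3 as 1 sample. At 2 reads, a library is below the 3 reads used as its floor.

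Mbnl3 was the lowest of the 3 in the group means of all 4 groups. Its levels were 110, 130 and 182 rpm in the wild-type Ago2 IP and 115, 237 and 134 rpm in the knockout Ago2 IP, from 7 to 16 reads per library. The enriched wild-type libraries had 167, 146 and 103 rpm, a range that overlaps that of the Ago2 IP libraries. The knockout enriched libraries had 246, 260 and 439 rpm, above all wild-type enriched libraries but from 3, 5 and 3 reads (groups of 28.5% of the 2146 genes tested did not overlap here). Their mean of 315 ± 108 rpm (SD, n = 3) was 298 ± 72.9 rpm (SD, n = 2) with libraries 2 and 3 as 1 sample. The Mbnl2 and Mbnl3 ranges overlap in the knockout enriched group, so their order is not settled there, while in the other 3 groups every Mbnl2 library was above every Mbnl3 library.

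**Figure D1:**
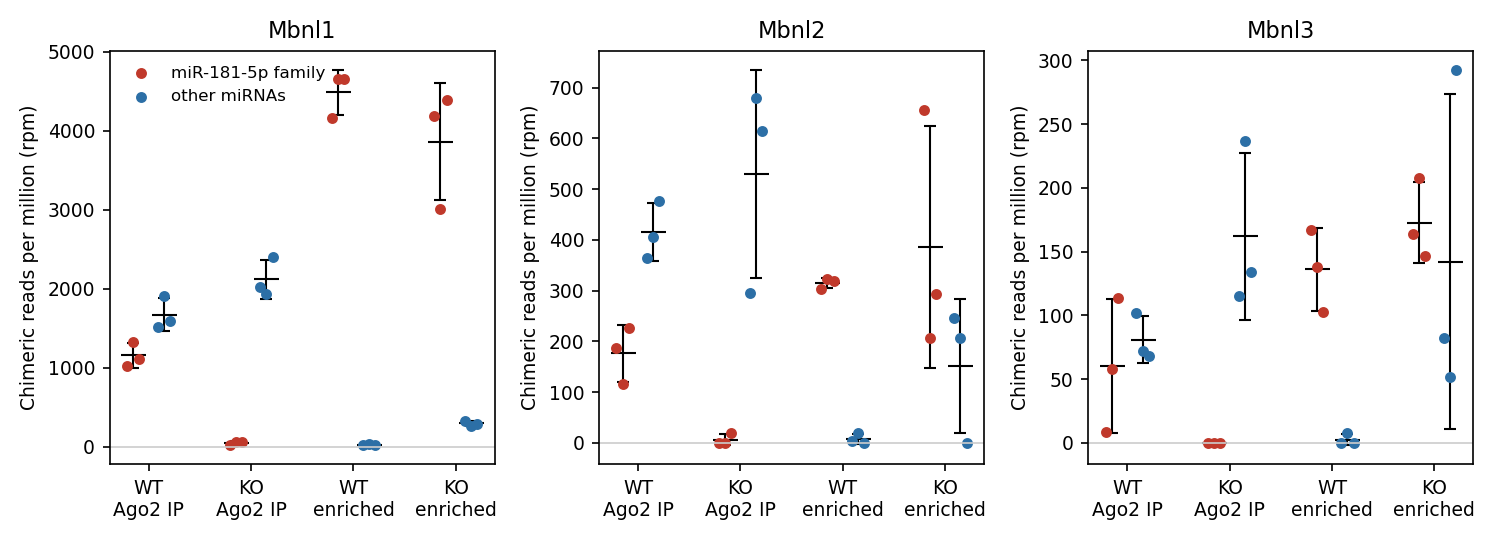
Chimeric reads per 1000000 (rpm) in each of the 12 libraries for Mbnl1, Mbnl2 and Mbnl3, split into reads of the miR-181-5p family (red) and of all other miRNAs (blue). Dashes are means and bars SD (n = 3), and each panel has its own linear scale. Mbnl1 miR-181-5p reads fall from 1155 to 44.4 rpm between wild-type and knockout Ago2 IP and are at 4489 and 3862 rpm in the enriched groups.

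Splitting Mbnl1 reads by miRNA separated a part that nearly vanished in the knockout from a part that did not. Reads of the miR-181-5p family on Mbnl1 were at 1018, 1332 and 1114 rpm in the wild-type Ago2 IP (120, 92 and 49 reads) and at 16.5, 59.1 and 57.6 rpm in the knockout (1, 4 and 3 reads). Reads of other miRNAs were at 1510, 1911 and 1592 rpm in wild type and at 2023, 1937 and 2399 rpm in the knockout. Both parts are shares of 1 total, and the library as a whole lost its miR-181-5p reads in the knockout. Per 1000000 reads of other miRNAs, the second part was 2426 ± 309 in wild type and 2150 ± 250 in the knockout (SD, n = 3 each), and on this scale the groups overlapped, while those of 17.9% of 1396 genes tested did not.

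The miR-181-5p family made up a larger share of Mbnl1 reads than of all reads. In the wild-type Ago2 IP that share was 40.3%, 41.1% and 41.2% on Mbnl1, against 30.1%, 30.9% and 32.3% of the libraries. In the knockout Ago2 IP it was 0.806%, 2.96% and 2.34% on Mbnl1, against 1.32% to 1.44% of the libraries. In the knockout enriched group it was 92.7%, 92.1% and 93.8% on Mbnl1, against 70.5%, 72.6% and 72.6% of the libraries, higher in 3 of 3. With libraries 2 and 3 as 1 sample the Mbnl1 share was 92.8% ± 0.127 (SD, n = 2). The wild-type enriched group was near its ceiling, with 99.4% ± 0.159 on Mbnl1 and 98.98% ± 0.207 of the libraries (SD, n = 3).

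On Mbnl2 the miR-181-5p share of the wild-type Ago2 IP was 33.8%, 22.2% and 32.3%, around the library value. In the knockout Ago2 IP it was 0%, 0% and 3.03%, from 1 read of 97. On Mbnl3 it was 7.69%, 44.4% and 62.5% in the wild-type Ago2 IP, from 1, 4 and 5 reads, and 0 of 30 reads in the knockout (95% Wilson interval 0% to 11.4%). These intervals and all floors cover counting error only.

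The genotype difference of the share was -38.8 percentage points for Mbnl1, -28.4 for Mbnl2 and -38.2 for Mbnl3 in the Ago2 IP, each lower in every knockout library than in any wild-type library. The exact two-sided permutation test over 3 against 3 libraries gave p = 0.1 for each, the smallest value this design allows, and 0.12 after Benjamini-Hochberg adjustment over 6 tests. In the enriched groups the difference was -6.56 points for Mbnl1 and -38.2 for Mbnl3 (exact p = 0.1, adjusted p = 0.12 for both) and -23.5 points for Mbnl2, whose groups overlapped (exact p = 0.4). The mean share of the libraries as a whole went from 31.1% to 1.38% in the Ago2 IP and from 98.98% to 71.9% after enrichment. With Mir181a-1 and Mir181b-1 deleted, a lower share was fixed in advance, so these tests show nothing particular to the Mbnl genes. With only miR-181a-5p and miR-181b-5p counted as the family, the enriched differences were -41.3 points for Mbnl1, -35.4 for Mbnl2 and -71.5 for Mbnl3. Leaving out any 1 library gave -36.4 to -11.4 points for Mbnl2 and -48.2 to -24.9 for Mbnl3. The knockout mean of Mbnl2 was 73.9% ± 1.61 and that of Mbnl3 61.7% ± 7.07 (SD, n = 2) with libraries 2 and 3 as 1 sample.

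Expressed per 1000 miR-181-5p reads of the library, Mbnl1 took 3.71 ± 0.517 (wild type) and 3.17 ± 1.67 (knockout) for the Ago2 IP, and 4.54 ± 0.282 and 5.38 ± 1.07 after enrichment (SD, n = 3 each). The knockout Ago2 IP and knockout enriched values overlap the others. These denominators include reads at Mir181a-1 and Mir181b-1 themselves, which made up 12.6% ± 0.874 of all reads in the wild-type enriched group and 0 in the knockout. In wild type Mbnl2 took 0.566 ± 0.171 reads before and 0.318 ± 0.010 after enrichment (SD, n = 3 each).

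Fitted across all genes, the lower Mbnl1 level in the knockout Ago2 IP passed the test at a threshold of 0.05. The log2 fold change was -0.41 (SE 0.12, edgeR quasi-likelihood test, Benjamini-Hochberg adjusted p = 0.0210), or 1.33-fold lower. In this comparison 10.2% of the genes tested passed, 6.75% as lower. The call was lost with DESeq2 (adjusted p = 0.206) and without wild-type library 2, knockout library 1 or knockout library 2, where edgeR's log2 fold changes were -0.32, -0.38 and -0.36 (adjusted p = 0.161, 0.0931 and 0.126). Mbnl2 did not pass, at a fitted value of -0.12 (SE 0.23, edgeR adjusted p = 0.813) with an approximate 95% interval from -0.58 to 0.33, and Mbnl3 did not pass the filter on low counts. Fitted on reads of other miRNAs alone, Mbnl1 had -0.17 (SE 0.13, interval -0.42 to 0.08, edgeR adjusted p = 0.646) and Mbnl2 -0.11 (SE 0.24, edgeR adjusted p = 0.922), where 2.29% of 1396 genes passed. An effect of this size on the other part was not detectable here, which does not show that it was absent.

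In the enriched groups no member passed. Mbnl1 had a log2 fold change in the knockout of -0.47 (SE 0.18, edgeR adjusted p = 0.134), Mbnl2 of 0.48 (SE 0.36, adjusted p = 0.534) and Mbnl3 of 0.73 (SE 0.52, adjusted p = 0.514). Of all genes tested, 5.5% passed. The Mbnl1 value depended on repeated reads and on single libraries: counting identical reads once gave 0.36 (adjusted p = 0.265), counting miR-181-5p reads alone gave -0.16 (adjusted p = 0.829, an alternative chosen after the data were seen), and leaving out knockout library 3 gave -0.76 (edgeR adjusted p = 0.0365). With knockout libraries 2 and 3 summed as 1 sample it was -0.58 (edgeR adjusted p = 0.128).

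The enrichment raised Mbnl1 in both genotypes. The log2 fold change of enriched over Ago2 IP was 1.04 (SE 0.14, edgeR adjusted p = 4.83e-08) in wild type and 1.05 (SE 0.17, edgeR adjusted p = 8.96e-08) in the knockout. In wild type 36.1% of genes passed, 19.3% as higher, and in the knockout 21.4% of 828 genes, 15.6% as higher. With identical reads counted once the wild-type value was 0.14 (edgeR adjusted p = 0.353) and no longer passed, and the wild-type enriched libraries are also those with most identical reads. The knockout value was 0.42 without the filter on low counts and no longer passed (edgeR adjusted p = 0.417). Mbnl2 was lower after enrichment in wild type, with a log2 value of -0.48 (SE 0.18, edgeR adjusted p = 0.0337), a call that DESeq2 (adjusted p = 0.189), the counting of identical reads once and the removal of any 1 library did not keep. Mbnl3 had 0.48 (SE 0.31, edgeR adjusted p = 0.235) in wild type, and Mbnl2 had 0.20 (SE 0.38, edgeR adjusted p = 0.792) in the knockout. The genotype effect did not differ between enriched and Ago2 IP reads beyond the test for any member, with differences of -0.26 (SE 0.24) for Mbnl1, 0.41 (SE 0.42) for Mbnl2 and 0.22 (SE 0.63) for Mbnl3 (edgeR adjusted p = 0.759, 0.804 and 0.956), where 2.47% of 2067 genes passed. With identical reads counted once the Mbnl1 difference turned to 0.66 and passed (edgeR adjusted p = 0.0244).

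**Figure D2:**
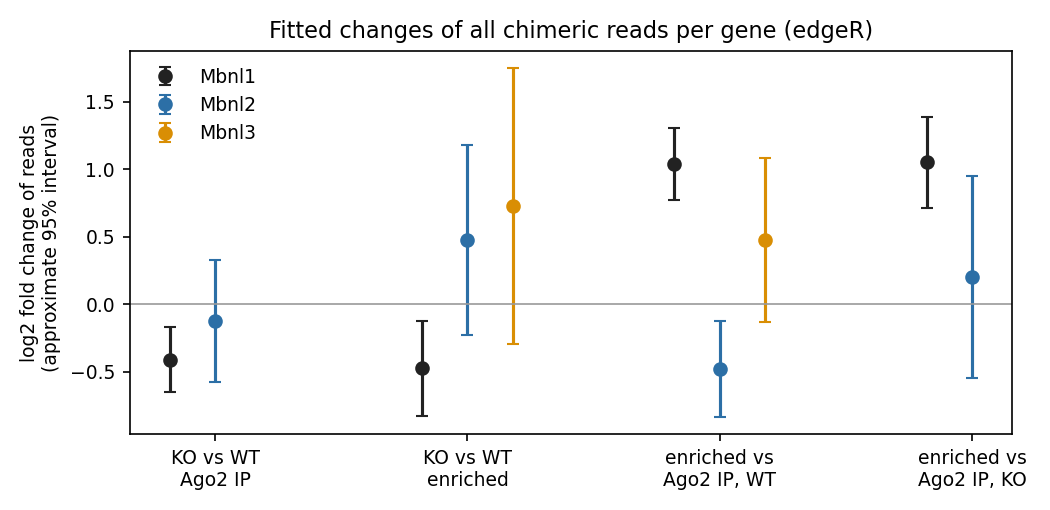
Fitted log2 fold changes of all chimeric reads per gene (vertical axis) in the 4 pairwise comparisons, with bars for approximate 95% intervals, from edgeR. WT is wild type and KO the knockout, and Mbnl3 was tested in 2 comparisons. The Mbnl1 values are -0.41 and -0.47 between genotypes and 1.04 and 1.05 between enriched and Ago2 IP libraries.

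The order of miRNAs other than miR-181 on Mbnl1 followed their abundance in the libraries only in part. In the wild-type Ago2 IP, miR-142a-3p, a miRNA of blood cells, made up 19.2% of Mbnl1 reads (123 of 641), against 27.8% of all reads. In the knockout it made up 34.1% (132 of 387), against 39.6% of all reads. Other shares in wild-type and knockout Ago2 IP reads were 4.37% and 7.75% for miR-16-5p, 2.81% and 3.62% for let-7i-5p, 2.34% and 4.39% for let-7a-5p, and 2.03% and 3.10% for miR-20a-5p. Read as seed families, the let-7 seed went from 12.2% to 18.3% of Mbnl1 reads, that of miR-17, miR-20 and miR-93 from 6.55% to 12.1% and that of miR-15 and miR-16 from 5.30% to 9.30%, as the miR-181 seed went from 40.7% to 2.07%. These are shares of 1 sum over pooled libraries and carry no test. On Mbnl2, miR-142a-3p was as frequent as the miR-181 seed in the wild-type Ago2 IP (40 of 132 reads each) and had 36 of 97 reads in the knockout. The next miRNAs on Mbnl2, miR-93-5p, miR-26a-5p, let-7a-5p and miR-16-5p, had 7 to 10 reads each over the 6 Ago2 IP libraries. On Mbnl3, miR-142a-3p had 4 of 30 reads in wild type and 10 of 30 in the knockout, let-7f-5p had 2 and 5, and miR-342-3p, miR-17-5p and let-7a-5p had 2 or 3 over both.

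Along the genes, miR-181-5p reads were gathered in a few places on Mbnl1, less so on Mbnl2, while on Mbnl3 both classes were gathered, in different places. With the Mbnl1 span cut into 10 equal parts from 5′ to 3′, the last part held 50.2% and the fourth part 28.0% of its 3713 miR-181-5p reads, and the same parts held 22.4% and 17.3% of its 790 reads of other miRNAs. On Mbnl2 no part held more than 23.96% of the 288 miR-181-5p reads or 17.4% of the 201 others. On Mbnl3 the third part held 41.3% of 121 miR-181-5p reads, whereas the last part held 41.1% of 56 other reads. All these shares include identical reads, which made up 39.6% of Mbnl1 reads, 1.23% of Mbnl2 reads and 5.08% of Mbnl3 reads. Windows from 250 bases before to 50 after the annotated starts held 3 reads in all on Mbnl1 and none on Mbnl2 and Mbnl3.

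**Figure D3:**
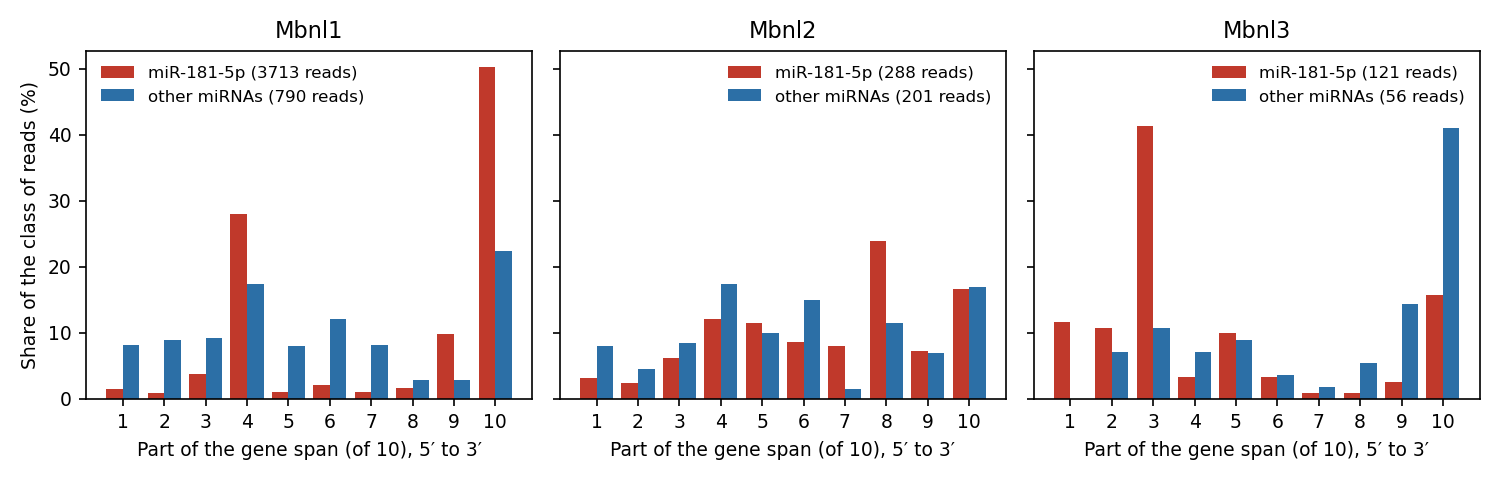
Share of reads (vertical axis, percent of the class) in each of 10 equal parts of the gene span from 5′ to 3′, for miR-181-5p reads (red) and reads of other miRNAs (blue) over 12 libraries. On Mbnl1 miR-181-5p reads lie mainly in the last part (50.2%) and the fourth (28.0%), on Mbnl3 in the third (41.3%). Identical reads are included.

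With identical reads included, most Mbnl1 reads came from a few sites. Of its 684 sites, 459 were single reads, and 34 held 10 reads or more. The 17 sites with at least 3 reads in each library of some group held 72.3% of the reads, and the largest site outside this rule held 22. The 2 largest sites held 2429 reads, 53.9% of the gene. Identical reads made up 64.3% and 65.2% of their reads, against 39.6% over all Mbnl1 reads. Their share of the gene is therefore lower with identical reads counted once. By contrast 1 of 308 Mbnl2 sites met the rule, with 11 reads, and 1 of 100 Mbnl3 sites, with 43. Sites were joined from the reads of all 12 libraries, and both their borders and their depth come mainly from the wild-type enriched libraries, which hold most reads.

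The largest site (chr3:60626589-60627059, plus strand, 1453 reads) lies 2.85 kb from the 3′ end of the Mbnl1 span, and is called the 3′-end site here. The wild-type Ago2 IP libraries gave it 54, 45 and 22 reads and the knockout Ago2 IP libraries 1, 2 and 4. The values were 458, 651 and 500 rpm against 16.5, 29.6 and 76.8 rpm, with a wide gap between the groups. The fitted log2 fold change was -3.85 (SE 0.44, edgeR adjusted p = 1.86e-13), or 14.4-fold lower. Both this site and the next passed the filter on low counts only through their wild-type reads, so these tests are not independent of that choice. Without the filter the value here was -4.06 (edgeR adjusted p = 8.07e-07), in a fit whose median over all 248449 sites was -1.89. Of the 251 sites tested in the genome, 36.3% passed, 25.5% as lower, and in 50.2% the groups did not overlap. Leaving out any 1 library gave values between -4.60 and -3.49, all called. miR-181-5p made up 92 of the 121 wild-type reads and 3 of the 7 knockout reads. With Mir181a-1 and Mir181b-1 deleted, a fall in most of these reads was fixed in advance. The test therefore shows nothing particular to this site.

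After enrichment the same site had 465, 440 and 376 reads in wild type and 20, 16 and 8 in the knockout, or 1586, 1736 and 1932 rpm against 1641, 831 and 1171 rpm. The ranges overlap, since knockout library 1 lies above wild-type library 1. The log2 fold change was -0.72 (SE 0.27, edgeR adjusted p = 0.0616), where 16.4% of 805 sites passed. It was -0.88 (adjusted p = 0.0597) with knockout libraries 2 and 3 summed, and 0.32 with identical reads counted once (adjusted p = 0.336). Leaving out knockout library 1 gave -1.55 and leaving out knockout library 3 gave -1.13 (edgeR adjusted p = 0.00930 and 0.00715), and the call was also made without any 1 of the wild-type libraries. Its share of all Mbnl1 reads was 18.9% in wild type and 1.81% in the knockout for the Ago2 IP, and 38.5% and 29.3% after enrichment.

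The second largest site (chr3:60529574-60529796, plus strand, 976 reads) lies 57.15 kb from the start of the span and is called the internal site here. Its Ago2 IP reads were 30, 22 and 10 for wild type and 1, 5 and 4 for the knockout. These are 255, 318 and 227 rpm against 16.5, 73.9 and 76.8 rpm, again without overlap. The log2 fold change was -2.38 (SE 0.45, edgeR adjusted p = 2.10e-06), or 5.21-fold lower, and -2.61 without the filter (edgeR adjusted p = 0.00425). In the enriched groups it had 1109, 1243 and 1120 rpm in wild type and 985, 1194 and 1610 rpm in the knockout, which overlap (log2 fold change -0.07, SE 0.27, edgeR adjusted p = 0.907). With identical reads counted once that value was 0.93 (edgeR adjusted p = 0.00518). In the wild-type Ago2 IP 48 of the 62 reads at this site were miR-181-5p reads. A fall in the knockout Ago2 IP was thus fixed in advance here too, and its test shows nothing particular to the site. Of the 10 knockout Ago2 IP reads at this site 1 was a miR-181-5p read, whereas all 46 knockout enriched reads were.

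Reads at both sites were concentrated at a few positions. At the 3′-end site 70.5% of reads lay within 25 nt of the most frequent position, 60626903, and at the internal site 80.1% lay within 25 nt of 60529709. These shares pool the 12 libraries, and 1281 of 1453 and 858 of 976 reads were wild-type enriched. The wild-type Ago2 IP reads of the 3′-end site were most frequent in the 10-nt bin that starts 30 nt upstream. That bin held 24 of 121 reads, and the bin that starts at 60626903 held 20. Other miRNAs had their median positions further away. The internal site had 13 miR-142a-3p reads, from 60529595 to 60529700, with their median position 107 nt upstream, and 4 miR-16-5p reads 28.5 nt downstream. The 3′-end site had 14 reads of miR-30c-5p, which falls outside the rule for named miRNAs and was picked after its values were seen, with the median 45 nt upstream, and 6 reads of miR-142a-3p with the median 62 nt upstream. Identical reads made up 64.3% and 65.2% of the reads at these sites, against 39.6% over all Mbnl1 reads.

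**Figure D4:**
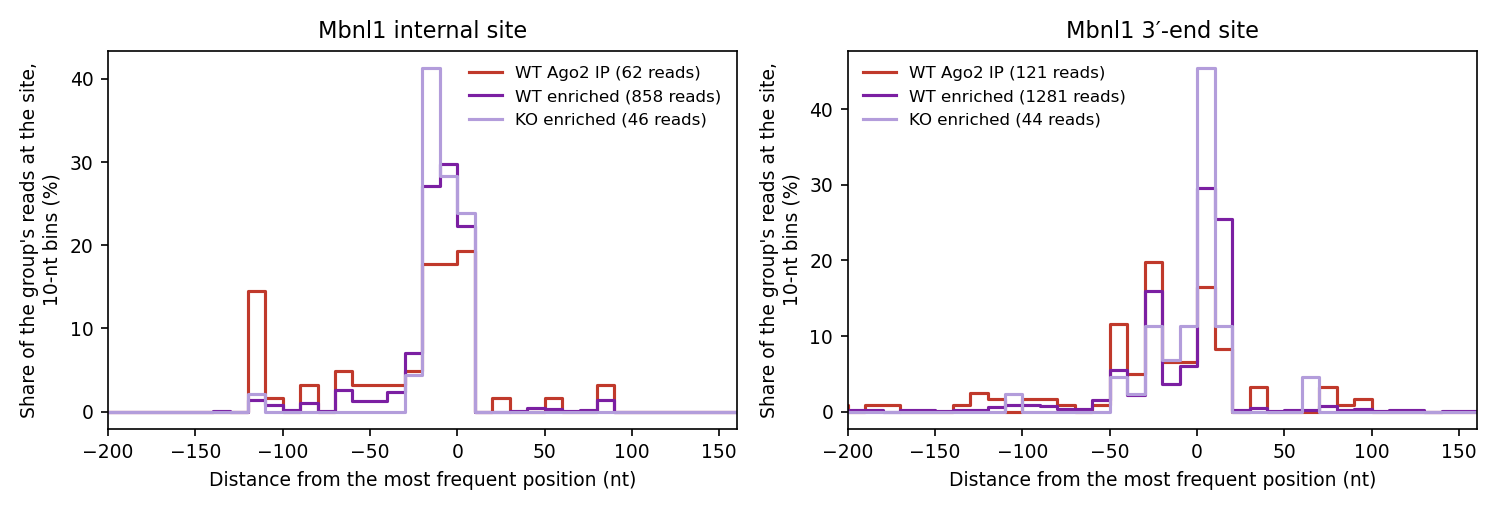
Reads at the internal site (left) and the 3′-end site (right) of Mbnl1 by distance from the most frequent position in nt, in 10-nt bins, as a percent of each group's reads at the site. The knockout Ago2 IP, with 10 and 7 reads, is not drawn. Both enriched groups peak within 20 nt of that position at both sites. At the 3′-end site the wild-type Ago2 IP is highest in the bin that starts 30 nt upstream. A separate wild-type Ago2 IP step lies in the bin that starts 120 nt upstream of the internal peak. The median of miR-142a-3p, 107 nt upstream, falls in the bin next to it.

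The remaining Mbnl1 sites were smaller. The third largest site (chr3:60613260-60613512, 268 reads) had 9, 5 and 2 Ago2 IP reads in wild type and 2, 0 and 0 in the knockout. After enrichment it was at 372, 331 and 247 rpm in wild type and 246, 208 and 293 rpm in the knockout, and the ranges overlap (log2 fold change -0.55, SE 0.50, edgeR adjusted p = 0.505). A site at chr3:60626377-60626498 (89 reads) had -0.34 (SE 0.87, edgeR adjusted p = 0.835), and a site at chr3:60615628-60615765 (111 reads) had -1.30 (SE 0.95, edgeR adjusted p = 0.388). Leaving out 1 library gave -0.74 to -0.13 at the internal site and, for these smaller sites in the order named, -1.08 to -1.04, -1.84 to -0.03 and -2.41 to -0.99, none of them called. For the smaller sites these ranges rest on 3 fits, each without a knockout library. Without a wild-type library these sites did not pass the filter on low counts. The values with all libraries, -0.07 at the internal site and -0.55 at the third largest, lie outside their ranges. Without the filter on low counts all 5 of the sites tested after enrichment were called as lower in the knockout, at -2.22 for the internal site, -2.87 for the 3′-end site and -2.71, -2.45 and -3.36 for the smaller ones (edgeR adjusted p = 0.0200, 0.00624, 4.15e-05, 0.0258 and 0.000289). That fit called 1093 of 260266 sites, 1082 of them as lower. Its median over all sites was -1.41, so values as a whole lay lower there. The other 12 sites of the rule held 14 to 67 reads each and did not pass the filter on low counts. Of these, 11 were led by miR-181a-5p or miR-181b-5p. All 11 met the rule in the wild-type enriched libraries, where miR-181-5p made up 98.8% to 99.2% of reads. Their leading miRNA was thus nearly fixed by the rule.

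The exception was a site of let-7i-5p (chr3:60580007-60580055), where 14 of 17 reads named that miRNA. It had 3, 4 and 3 Ago2 IP reads (wild type) and 2, 2 and 2 (knockout), and 1 read in all 6 enriched libraries. Its levels were 25.5, 57.9 and 68.2 rpm in wild type and 32.9, 29.6 and 38.4 rpm in the knockout, which overlap and are near the floor of 3 reads per library.

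The Mbnl2 site (chr14:120398019-120398050, 11 reads) held only miR-181a-5p, with 3, 4 and 3 reads in the wild-type enriched libraries, 1 in knockout enriched library 2 and none in the Ago2 IP. The Mbnl3 site (chrX:51185678-51185771, minus strand) lies 20.3 kb from the gene's 5′ end. After enrichment it had 20, 12 and 5 reads in wild type and 2, 2 and 0 in the knockout, and the Ago2 IP gave 2 reads, and all 43 reads named miR-181-5p members. It held 34.9% of Mbnl3 reads in the wild-type enriched group, and neither site could be tested at this depth.

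Members of the miR-181-5p family did not divide equally over the Mbnl1 sites. In the wild-type enriched libraries miR-181b-5p made up 18.4% of all miR-181a-5p and miR-181b-5p reads. At the 3′-end site it made up 6.59% (95% Wilson interval 5.35% to 8.09%) and at the internal site 7.79% (6.17% to 9.79%). At chr3:60629475-60629545, 0.221 kb from the span's 3′ end, it made up 76.3% (60.8% to 87.0%, 29 of 38 reads), and at chr3:60615628-60615765 54.8% (44.1% to 65.0%, 46 of 84 reads). These sites were singled out after their values were seen, and no test is given. At the first of them the 3 libraries had 11, 9 and 9 miR-181b-5p reads against 4, 3 and 2 of miR-181a-5p. At the second they had 17, 13 and 16 against 7, 18 and 13, so that miR-181a-5p led in library 2. Counted once, the first had 23 against 8 and the second 41 against 36 reads.

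For Mbnl1 as a whole the miR-181b-5p share was 10.7%, 10.9% and 12.4% in the 3 wild-type enriched libraries, below the library value in each (17.3%, 18.3% and 20.3%). That gap was not seen with identical reads counted once, when Mbnl1 had 19.7% (17.8% to 21.8%) and all reads 19.8%. Outside the 2 largest sites the share was 18.8% (16.6% to 21.1%). The low shares of the 2 largest sites together rose from 7.07% to 17.7% (14.7% to 21.0%) when identical reads were counted once, so the contrast of these sites with the library rests on identical reads, while the high shares of the other sites do not.

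**Figure D5:**
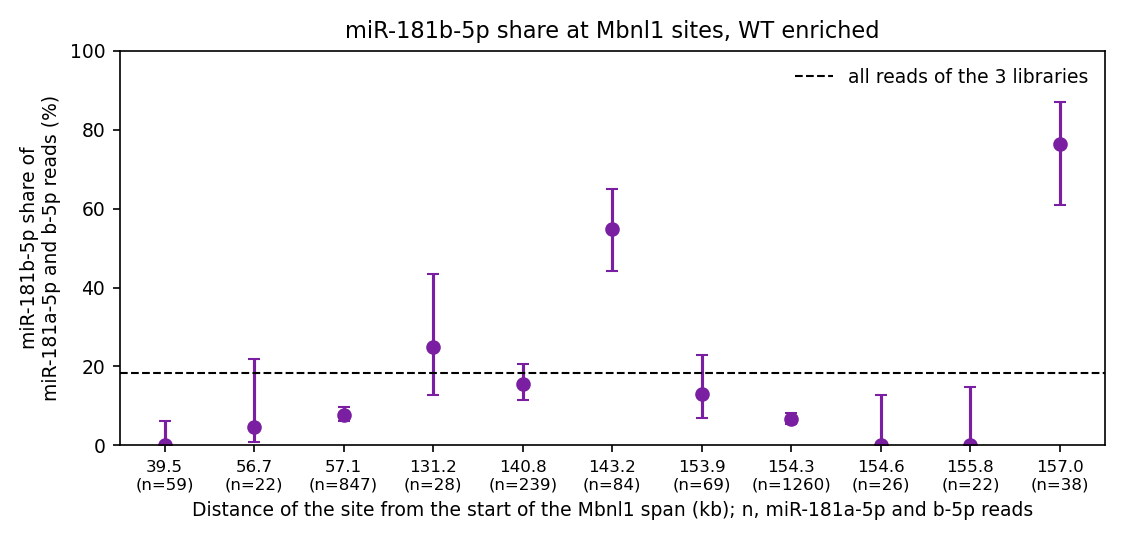
Share of miR-181b-5p among miR-181a-5p and miR-181b-5p reads (vertical axis, percent) in the pooled wild-type enriched libraries at Mbnl1 sites with at least 20 such reads, ordered by distance from the start of the span in kb. Bars are 95% Wilson intervals, which cover counting error only, and the dashed line is the share in all reads, 18.4%. The site at the far right is at 76.3% and that at 143.2 kb at 54.8%, while the sites with most reads are at 7.79% and 6.59%.

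In the knockout, where Mir181a-1 and Mir181b-1 are deleted, miR-181c-5p took a larger place. It made up 47 of the 139 miR-181-5p reads on Mbnl1 in the enriched libraries, or 33.8% (26.5% to 42.0%), against 22.2% of all miR-181-5p reads. By library the Mbnl1 share was 37.3%, 32.8% and 30.0%, against 23.2%, 21.8% and 21.8%, higher in 3 of 3, and 37.5%, 32.1% and 27.6% with identical reads counted once. miR-181a-5p made up 50.4% (42.2% to 58.5%), miR-181b-5p 10.8% (6.65% to 17.0%) and miR-181d-5p 5.04% (2.46% to 10.03%), against 45.6%, 19.3% and 12.8% of all miR-181-5p reads. Over all Mbnl1 reads miR-181c-5p was thus above its library share and miR-181b-5p and miR-181d-5p below theirs, while the interval of miR-181a-5p holds its library share. Most of the 47 miR-181c-5p reads came from the 3′-end site (18) and the internal site (16). These sites held only 2 and 1 of the 15 miR-181b-5p reads. The pattern was not shown for the rest of the gene. In library 2 miR-181a-5p was below its library share, at 44.8% against 45.8%. In wild type miR-181c-5p made up 0.968% of the Mbnl1 miR-181-5p reads after enrichment. On Mbnl2 and Mbnl3 the knockout enriched libraries held 14 and 7 miR-181-5p reads, too few to compare.

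Other regulators of splicing gave a background for the family. Of 26 genes of the Celf, Rbfox, Ptbp, Qk, Tia, Khdrbs, Nova, Elavl and Esrp families, 6 were tested between genotypes in the Ago2 IP: none was higher and 1 lower (10.2% of all genes passed), Ptbp3, a polypyrimidine tract-binding protein (824 ± 80.4 rpm in wild type and 396 ± 95.5 in the knockout, SD, n = 3 each, log2 fold change -1.13, SE 0.22, edgeR adjusted p = 9.71e-05). Their median log2 fold change was -0.15, against 0.02 over all 1615 genes. In the enriched groups 6 were tested and edgeR called none (median -0.10, against -0.13 over all genes). Between enriched and Ago2 IP libraries of wild type, 9 were tested and 6 passed, where 36.1% of all genes did. Celf2, Ptbp3 and Tial1 rose and Ptbp1, Ptbp2 and Qk fell, with log2 fold changes from -0.91 for Ptbp1 to 2.02 for Ptbp3. The value of Mbnl1, 1.04, lies between that of Ptbp3 and that of Tial1, 0.82. In the knockout, where 21.4% of all genes passed, 2 were tested, and Ptbp3 was higher after enrichment (log2 fold change 3.18, SE 0.23, edgeR adjusted p = 1.14e-27).

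Across the 12 libraries the genes whose levels most resembled those of Mbnl1, out of 2433 genes with at least 100 reads, were Ddx3x, Fbxo21 and Gm46226 (Spearman correlation 0.944 each) and Cdipt and Gm6712 (0.937 each). For Mbnl2 they were Zmynd8 (0.923), Uba1, Agpat3, Uhrf1bp1l and Elk3 (0.867), and for Mbnl3 Slc25a3 and St8sia4 (0.860 each), Ubap2l, Stam2 and Zswim8 (0.776). Mbnl1 correlated with Mbnl2 at -0.364 and with Mbnl3 at 0.224, and Mbnl2 with Mbnl3 at 0.133. These are descriptions over 12 libraries that share 4 groups and differ in depth and in their miR-181-5p share, so that genes with the same order of groups correlate whatever else they share.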

How the data were processed

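Per the labels' protocols, a company made the libraries from 20 ug of total RNA of crosslinked cells and read them in pairs of 150 nt. The submitters' processing notes name Bowtie2 2.4.5, SAMtools 1.11, STAR 2.7.10, UMI-tools 1.1.1, bedtools 2.30.0 and the builds mm10 and GRCm38.p6, with no role or order. For the authors' removal of duplicates and filtering of chimeras, settings were not given in the sources used here. What they deposited are raw counts, 1 line for 1 chimeric read, with its position (1 nt wide), miRNA and strand, neither scaled nor pooled.

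The 24 files of 12 libraries were used whole, 1190995 reads in all, with 3 reads per library as the floor. Reads were counted over RefSeq gene spans on the annotated strand, known for 68.7% of genes with reads, and otherwise on the strand with more reads. A read in overlapping spans counted for each. Sites joined reads at most 20 nt apart. Counts were fitted across all genes or sites with edgeR 4.0.16 (quasi-likelihood tests with TMM scaling, after filterByExpr at min.count 10; R 4.3.3), tested first on simulated data, and called at an adjusted p of at most 0.05. SEs follow from the F statistic, and approximate 95% intervals from the SEs. Only the groups compared entered a fit, except for the difference of genotype effects. Shares were compared by exact permutation tests (Python 3.11.15, scipy 1.17.1), with 95% Wilson intervals. DESeq2 1.42.0, library totals alone, no filter, identical reads counted once, a replicate block, sites joined at 50 nt, knockout enriched libraries 2 and 3 summed and leaving out each library were alternatives.

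The members, the lists and the tests were chosen with earlier results of these data known. Named items are the 3 genes, their sites with at least 3 reads in each library of a group, the miR-181-5p family, the 5 other miRNAs with most Ago2 IP reads on each gene, the 5 genes most like each member and the called splicing regulators. Replicate numbers were not shown to pair samples: correlations of same-numbered libraries' deviations lay between -0.05 and 0.13. Between Ago2 IP and enriched groups the same number matched best for wild-type libraries 1 and 3 and knockout libraries 2 and 3. It did not for wild-type library 2, knockout library 1 or any pair between genotypes. Inputs were not analysed here.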

Additional observations from a re-analysis of the deposited data

Results flagged for a closer look

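At 3 Mbnl1 sites the genotype effect differed between the enriched and the Ago2 IP libraries (interaction on the log2 scale, knockout against wild type, enriched minus Ago2 IP, fitted over 12 libraries with edgeR). The site-level test was added after the site values were seen. The difference was 3.61 at the 3′-end site (chr3:60626589-60627059, SE 0.56, edgeR adjusted p = 2.95e-09), 2.78 at the internal site (chr3:60529574-60529796, SE 0.55, edgeR adjusted p = 5.55e-06) and 2.54 at chr3:60613260-60613512 (SE 1.08, edgeR adjusted p = 0.0373). Of the 608 sites tested 53.5% had a higher value past the threshold, and the median over all of them was 2.67. Leaving out 1 library gave 88 to 377 calls and medians from 1.36 to 2.71, with the fewest calls (88 of 790 sites) without knockout enriched library 1. Nothing particular to Mbnl1 is read from these values. With DESeq2 they were 1.82, 0.96 and 0.81, and none passed (adjusted p = 0.0595, 0.291 and 0.705), and 51 sites were called in place of 326. With knockout enriched libraries 2 and 3 summed they were 2.67, 1.77 and 1.58 (edgeR adjusted p = 0.000335, 0.0224 and 0.302). Leaving out any 1 library kept the call at the 3′-end site (2.14 to 4.19), whereas at the internal site it was lost without wild-type Ago2 IP library 1, wild-type enriched library 2 or 3, or knockout enriched library 3 (1.56 to 2.92 over all), and at the third of these sites without any 1 of 10 libraries (0.88 to 5.54). The same reads counted over the whole Mbnl1 span gave -0.26 (edgeR adjusted p = 0.759).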

How the results depend on the processing

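The miR-181-5p share was lower in the knockout in all 12 values under other settings and all 36 that left out 1 library. The share of the libraries as a whole was lower too, so this direction was fixed in advance, and the exact test cannot pass 0.05 in this design. Of the gene values, 73 of 86 under other settings and 85 of 102 that left out 1 library kept their direction and their side of the threshold. Without the filter on low counts, the knockout against wild-type change after enrichment was -1.11 for Mbnl1 (edgeR adjusted p = 2.23e-07) and -0.14 for Mbnl2. In that fit the median over all 15451 genes was -1.30, and 256 of the 283 genes called were lower. Mbnl1 was thus not below the median gene. Enriched over Ago2 IP without the filter was -0.28 for Mbnl2 in wild type (median over all genes 0.31). In the knockout it was 0.42 for Mbnl1 (no longer called) and -0.41 for Mbnl2 (median -1.39). The Mbnl3 difference of genotype effects was -0.089 (median -1.21). With DESeq2, Mbnl1 was at -0.41 in the Ago2 IP and Mbnl2 at -0.46 for enriched over Ago2 IP in wild type, neither called. Counted once, identical reads gave Mbnl1 0.36 between enriched genotypes, 0.14 for enriched over Ago2 IP in wild type and 0.66 for the difference of genotype effects (edgeR adjusted p = 0.0244), Mbnl2 -0.39, the internal site 0.93 and the 3′-end site 0.32. Library totals alone turned the Mbnl1 difference of genotype effects to 0.21 and the internal site to 0.071, and moved the median over all genes from -0.13 to 0.16 between enriched genotypes, from -0.04 to -0.39 (wild type) and -0.07 to -0.25 (knockout) for enriched over Ago2 IP, and from -0.15 to 0.30 for the difference.

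Leaving out 1 library gave ranges of -0.52 to -0.32 (Mbnl1) and -0.38 to 0.16 (Mbnl2) between genotypes in the Ago2 IP, -0.27 to -0.07 (Mbnl1) and -0.37 to 0.19 (Mbnl2) for reads of other miRNAs there, -0.81 to -0.33 (Mbnl1), -0.26 to 0.41 (Mbnl2) and 0.34 to 0.60 (Mbnl3) between enriched genotypes, -0.51 to -0.35 (Mbnl2, wild type), 0.29 to 0.71 (Mbnl3, wild type) and -0.38 to 0.39 (Mbnl2, knockout) for enriched over Ago2 IP, and -0.39 to -0.14 (Mbnl1), -0.0027 to 0.67 (Mbnl2) and -0.026 to 0.65 (Mbnl3) for the difference. Mbnl2 changed sign without knockout Ago2 IP library 1 or knockout enriched library 1, and Mbnl3 without knockout Ago2 IP library 1. Between enriched genotypes the Mbnl2 and Mbnl3 ranges rest on 3 fits, each without a knockout library. Without a wild-type library these genes did not pass the filter on low counts there. Their values with all libraries, 0.48 and 0.73, lie above these ranges.

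With the replicate block, Mbnl1 was at -0.42 in the Ago2 IP (edgeR adjusted p = 0.0217) and -0.47 between enriched genotypes (edgeR adjusted p = 0.270). The block changed no call of a gene or site named here, and same-numbered libraries were not shown to be paired.

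Calls over all genes went from 164 to 58 (Ago2 IP genotypes), 118 to 67 (enriched genotypes, 45 higher and 73 lower against 43 and 24), 1134 to 684 (wild-type enrichment) and 32 to 8 (other miRNAs) with DESeq2. Library totals alone gave 75 higher and 34 lower between enriched genotypes, 389 and 1063 in place of 606 and 528 for wild-type enrichment, 122 and 103 in place of 129 and 48 for knockout enrichment, and 85 in place of 51 calls for the difference. Without the filter 283 genes were called between enriched genotypes, 18 for the difference and 20 for other miRNAs. Sites called without it were 206 in place of 91, 1093 in place of 132, and 2 in place of 326. Depth limits Mbnl2 and Mbnl3 most: their knockout enriched libraries held 2 to 11 and 3 to 5 reads.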
